A study of Mus musculus with 24 samples.

Results

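Whole kidneys of mice with a tubule-specific deletion of Pex5 were examined for 37 genes of mitochondrial fatty acid oxidation and ketone body metabolism. Pex5 encodes the receptor that carries most matrix enzymes into peroxisomes. The 37 genes were chosen by function and listed by symbol, out of 55335 genes in each deposited count table. Earlier results of these data were known when the genes were chosen. Shares of members called are therefore set beside those of all genes as a description, not as a test. Deleted mice carried Pex5lox/lox, Pax8-rtTA and LC1, received doxycycline (DOX) for 2 weeks starting at 8 weeks of age, and were killed 4 weeks after DOX ended. Pax8-rtTA confines the DOX-dependent LC1 Cre to the renal tubule, so cells outside the tubule in the same kidney are not targeted. Controls were Pex5lox/lox littermates on the same DOX, and the lines were bred on C57BL/6J. The groups were Ctrlm (control males), cKOm (deleted males), Ctrlf (control females) and cKOf (deleted females), with 6 mice in each and 24 in all. Nothing marks same-numbered mice of different groups as related.

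Fatty acids enter mitochondria as acylcarnitines through the carnitine shuttle. They are then shortened by repeated rounds of beta-oxidation, in which acyl-CoA dehydrogenases, hydratases, hydroxyacyl-CoA dehydrogenases and thiolases act in turn. Electron transfer flavoprotein passes the electrons of the dehydrogenase step to the respiratory chain, and auxiliary isomerases and reductases deal with double bonds of unsaturated chains. The proximal tubule relies on this pathway for much of its ATP. Peroxisomes shorten very long and branched chains first and hand the products to mitochondria as carnitine esters. The liver is the main source of ketone bodies, which the kidney can burn.

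Libraries held 19376152 to 28470831 counts on genes (median 21592602). Values are CPM (counts relative to library size, on the usual CPM scale), corrected by the TMM method of edgeR, and differences are log2 fold changes from the edgeR quasi-likelihood test, given ± their standard error (SE). A gene was called at an adjusted p under 0.05, with male and female tests adjusted together over all 16092 genes that reached 1 CPM in at least 1 kidney. Pex5 itself was 54.3 ± 4.63 CPM (SD, n = 6) in Ctrlm and 43.7 ± 1.94 in cKOm, a log2 fold change of -0.31 ± 0.08 (edgeR adjusted p = 0.0219). In females it was 50.3 ± 6.97 in Ctrlf and 43.6 ± 3.55 in cKOf (-0.21 ± 0.08, edgeR adjusted p = 0.177). The male call was lost without Ctrlm 2 (edgeR adjusted p = 0.0657 for Pex5), without Ctrlm 2 and Ctrlm 4 (0.092) and without cKOm 4 (0.0508). It was also lost without the 5 males described next (edgeR adjusted p = 0.388) and with the hepatocyte markers described next as a covariate (0.117). Counts from the undeleted cells and from the exons left in place are part of these values. In whole kidney, fewer cells of a type and less RNA per cell cannot be told apart.

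Some libraries stood apart before any comparison. Alb, which encodes the albumin made by hepatocytes, was at 224 to 662 CPM in 5 males (Ctrlm 1 to 4 and cKOm 4) and at 15.1 to 34.5 CPM in the other 7 males. In females it was at 21.6 to 60.2 CPM. Ahsg, another liver gene, was at 30.9 to 67.2 CPM in the same 5 males and at most at 3.7 CPM in the other males. Not all 12 hepatocyte markers separated these males. Ttr was at 42.1 to 109 CPM in the 5 and 18.7 to 86.5 in the other 7. Serpina1a was at 21.2 to 52.1 and 9.8 to 61.7 CPM, in that order. The 5 libraries include 4 of 6 control males. Each male call of a member is therefore also given without the 5, which leaves 2 Ctrlm and 5 cKOm mice. That setting was chosen after seeing the data. Against 4.9% of all genes called lower and 4.14% higher, 3 of the 12 hepatocyte markers fell and 1 rose in cKOm. Their summed level was 1504 to 3825 CPM in Ctrlm, 869 to 1400 in cKOm, 221 to 330.1 in Ctrlf and 232 to 351 in cKOf, and all 12 had counts. Much of the male sum is Cyp2e1, which was at 772 to 3018 CPM in the 5 males and at 702 to 2229 CPM in the other 7. Against the same 4.9% of all genes, 5 of 10 proximal tubule markers fell in cKOm. Their summed level was 10194 to 11681 CPM in Ctrlm and 8726 to 9804 in cKOm. All 10 were detected. The summed level of 5 thick ascending limb markers, of which 1 was called higher, was 3363 to 4373 CPM in Ctrlm and 4171 to 4761 in cKOm. That of 3 distal convoluted tubule markers was 914 to 1701 and 1589 to 1991, and that of 4 podocyte markers 380.4 to 465 and 455 to 477. Of 9 leukocyte markers tested 1 was called lower, and the sum over all 10 was 94.5 to 145 in Ctrlm and 79 to 113 in cKOm. Over 12 adipocyte markers the summed level was 901 to 1677 CPM in Ctrlm, 936 to 2622 in cKOm, 1946 to 3174 in Ctrlf and 2338 to 3513 in cKOf. None of the 11 tested was called in either sex, and their median log2 fold change was 0.35 in males and -1.07 in females. The 12 include Pck1, which is not confined to fat cells. The adipocyte sum was not split by gene, so it is not read as a level of fat cells. The sum over 8 skeletal muscle markers was 621 CPM in Ctrlf 4 and 151 in Ctrlf 5. It was 110 in cKOf 1, 132 in cKOf 4 and 117 in cKOf 6, and 4.14 to 14.2 in the other females. Males were at 1.28 to 44.5, with Ctrlm 5 the highest, and none of the 8 was called in either sex. The part of these marker differences in the results on members was not tested.

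In males, 18 of the 36 members tested were called, 9 higher and 9 lower in cKOm, against 9.05% of all genes tested (4.14% higher, 4.9% lower). The higher group was Slc25a20, Crat, Acadvl, Hadha, Hadhb, Acaa2, Decr1, Decr2 and Ucp2. The lower group was Crot, Acadm, Acads, Acad9, Acad10, Ivd, Eci3, Bdh1 and Acat1. In 15 of the 36, the 6 cKOm mice did not overlap the 6 Ctrlm mice, which held for 7.38% of all genes. The median log2 fold change of the members was 0.07 and that of all genes 0.01. The median size of the change, without its sign, was 0.318 for members and 0.186 for all genes. The median SE was 0.0974 for members and 0.14 for all genes, so a change of a given size is called more readily in members. When the 5 males with liver markers were left out, 10 members were called (3 higher, 7 lower), against 3.69% of all genes. Of the 18, 9 remained, namely Slc25a20, Decr2, Ucp2, Crot, Acadm, Acad9, Eci3, Bdh1 and Acat1.

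In females, 6 of 36 members were called, against 0.851% of all genes. Slc25a20, Crat, Acaa2, Etfdh and Ucp2 were higher in cKOf (0.391% of all genes were called higher) and Acad9 was lower (0.46%). In 4 of the 36, the cKOf mice did not overlap the Ctrlf mice (Crat, Acaa2, Ucp2 and Acad9), against 0.559% of all genes. The median log2 fold change was 0.06 for members and 0.002 for all genes. The median SE was again smaller for members, at 0.0971 against 0.14. Slc25a20, Acaa2 and Ucp2 stayed called without Ctrlf 5 and cKOf 6, the females farthest from their groups over the members, while Crat, Acad9 and Etfdh did not. The count also fell to 3 when Ctrlf 3, cKOf 5, cKOf 6, Ctrlm 1, cKOm 2 or cKOm 5 was left out on its own. Cpt1b, the muscle form of carnitine palmitoyltransferase, had 0 to 18 counts a kidney and did not reach the level needed for a test.

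**Figure D1:**
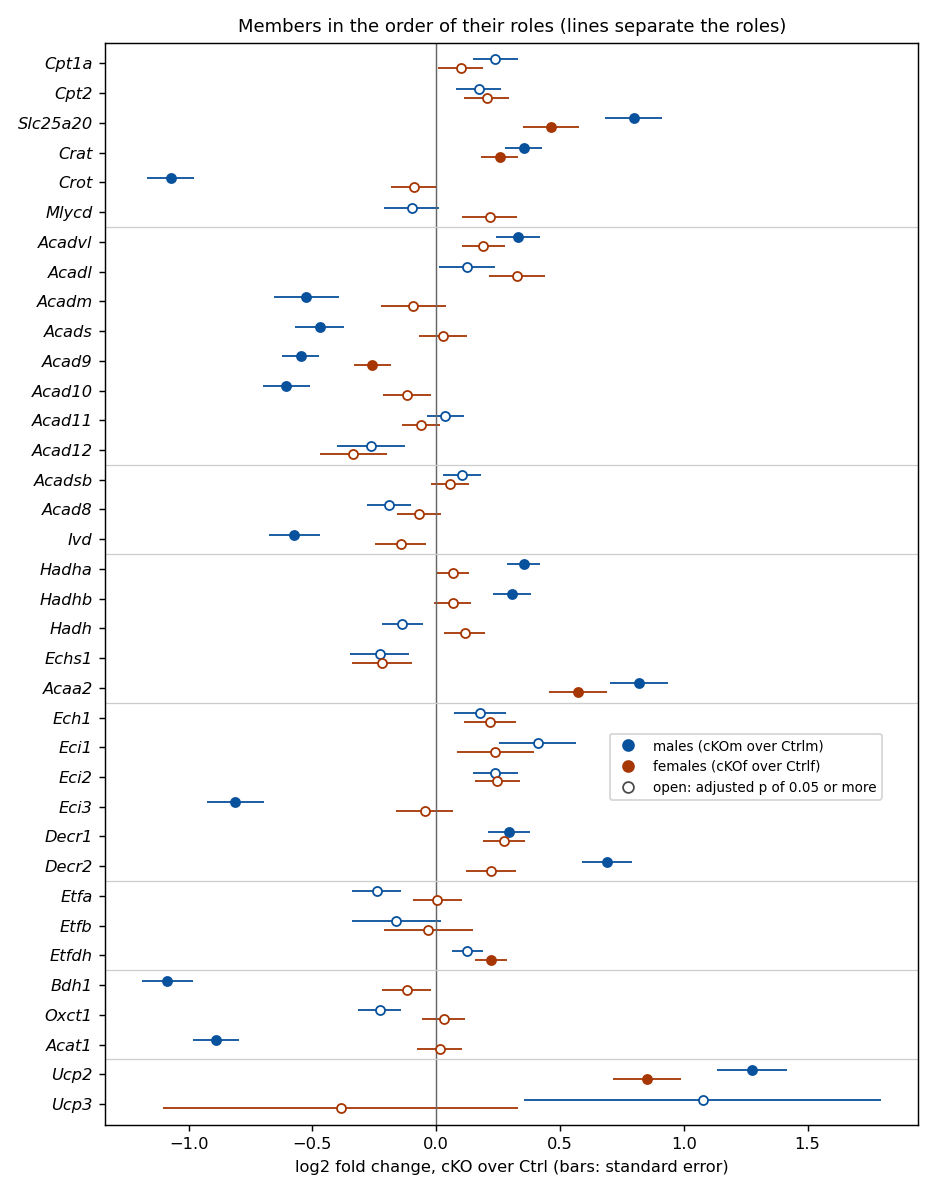
Log2 fold change (cKO over Ctrl) of the 36 members tested, in males (blue) and females (brown), with bars for the standard error and filled points for an adjusted p under 0.05. Points lie on both sides of 0 in males, from Bdh1 at -1.09 to Ucp2 at 1.27, while female points lie between -0.39 (Ucp3) and 0.85 (Ucp2).

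Promoter sequence was read for every member with a window, called or not, from RefSeq windows of 250 bases before to 50 after the start (GRCm38.p6). A window was given for 31 of the 37 members, 32 windows in all, and not for Acaa2, Acad9, Acat1, Cpt1b, Crat and Decr1. PPAR receptors bind AGGTCA repeated with 1 base between the copies (DR1). That exact repeat, on either strand, was in 0 of the member windows and in 0.0396% of all 32817 windows. TCAAGGTCA, a site of estrogen-related receptors, was in 0 and in 0.424%, and TGACGTCA, the CRE of cAMP signalling, in 0 and in 1.79%. The core AGGTCA alone was in 5 of the 32 member windows (Acadm, Acadvl, Cpt1a, Echs1 and Ucp3), or 15.6%, against 16.3% of all windows. Any DR1 or TCAAGGTCA match also holds this core. An absent match says only that these letters are not in the window.

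The stretches with the core are shown for Acadm, lower in cKOm, Acadvl, higher in cKOm, and Cpt1a, not called. All are 5′ to 3′ on the strand of the gene, with the core in capitals (TGACCT is the core on the other strand). They lie at chr3:153944857-153944893 (minus strand), chr11:70015480-70015545 (minus strand) and chr19:3323177-3323242 (plus strand), outside annotated exons.
Acadm: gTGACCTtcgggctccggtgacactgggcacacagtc
Acadvl: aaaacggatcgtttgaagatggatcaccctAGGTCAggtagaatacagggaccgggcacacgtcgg
Cpt1a: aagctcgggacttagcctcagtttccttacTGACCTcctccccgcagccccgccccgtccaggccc

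Stretches of 100 bases that end just before the first GENCODE exon are shown for Slc25a20 and Ucp2, which rose in both sexes, and for Bdh1 and Eci3, which fell in cKOm. None of the motifs searched is in them, so they carry no capitals. They lie at chr9:108661988-108662087, chr7:100493237-100493336 and chr16:31422180-31422279 on the plus strand, and at chr13:34963811-34963910 on the minus strand.
Slc25a20: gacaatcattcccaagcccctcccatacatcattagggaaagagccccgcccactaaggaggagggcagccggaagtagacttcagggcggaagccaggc
Ucp2: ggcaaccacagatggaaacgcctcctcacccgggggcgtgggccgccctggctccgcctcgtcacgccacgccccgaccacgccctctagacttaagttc
Bdh1: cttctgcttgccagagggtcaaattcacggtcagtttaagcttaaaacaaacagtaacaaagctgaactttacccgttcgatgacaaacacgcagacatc
Eci3: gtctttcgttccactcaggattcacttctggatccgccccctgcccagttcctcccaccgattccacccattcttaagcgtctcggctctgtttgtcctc

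Of the 6 tested members of the carnitine shuttle and its supply, 2 were called higher in males (Slc25a20 and Crat). Crot, 1 of the 6, was called lower, and 3 were not called. Over all genes, 4.14% were called higher and 4.9% lower in males. Slc25a20 (ENSMUSG00000032602, chromosome 9, 108662088 to 108684641, plus strand in GRCm38), the carrier that exchanges acylcarnitine for carnitine across the inner membrane, was at 33.3 to 53 CPM (median 40.5) in Ctrlm and 63.5 to 80.7 (median 73.3) in cKOm, with no overlap. It rose by 0.80 ± 0.11 on the log2 scale, or 1.74-fold (edgeR adjusted p = 3.12e-05). With the 5 males with liver markers left out, the rise was 0.83 ± 0.17 (edgeR adjusted p = 0.00614). In females it was at 41.5 to 62.8 (median 44.3) in Ctrlf and 56.8 to 79.2 (median 60) in cKOf, a rise of 0.46 ± 0.11 (edgeR adjusted p = 0.0124). The highest control female, Ctrlf 5, reached into the cKOf range. With p-values adjusted within each sex the female rise was not called (edgeR adjusted p = 0.0993 for Slc25a20).

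Crat, the carnitine acetyltransferase that buffers acetyl-CoA, rose by less. It was at 148 to 195 CPM (median 172) in Ctrlm and 198 to 232 (median 219.6) in cKOm, and at 140.3 to 179.7 (median 169.6) in Ctrlf and 183 to 217 (median 196) in cKOf. The groups did not overlap in either sex. The rise was 0.35 ± 0.08 in males (edgeR adjusted p = 0.00375) and 0.26 ± 0.08 in females (edgeR adjusted p = 0.0458). In the other 7 males, it was of similar size, 0.34 ± 0.11, but not called (edgeR adjusted p = 0.137). The female call for Crat was lost without any one of Ctrlf 1, 2, 3 or 5 and cKOf 2, 4, 5 or 6 (0.21 to 0.27). It was also lost without Ctrlm 1, Ctrlm 4 or any single cKOm mouse, which enter through the shared fit, and without the 5 males. The same held with adjustment within each sex, with no filter beyond 1 count, in a fit of females alone and with either marker covariate (edgeR adjusted p = 0.0629 to 0.269 for Crat).

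Crot (ENSMUSG00000003623, chromosome 5, 8966033 to 8997324, minus strand in GRCm38), the peroxisomal carnitine octanoyltransferase that prepares chain-shortened acyl groups for export to mitochondria, fell by 1.07 ± 0.09 in males, to 0.476 of the control level (edgeR adjusted p = 1.74e-08). It was at 324 to 442 CPM (median 375) in Ctrlm and 169 to 198 (median 176) in cKOm, with no overlap. Females were low in both groups, at 118 to 188 (median 142) in Ctrlf and 123 to 157 (median 136) in cKOf (-0.09 ± 0.09, edgeR adjusted p = 0.725). The male value was -1.04 ± 0.14 without the 5 males with liver markers (edgeR adjusted p = 9.31e-05).

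Cpt1a and Cpt2, the outer and inner carnitine palmitoyltransferases, and Mlycd, which removes malonyl-CoA, the inhibitor of Cpt1a, were called in neither sex. Cpt1a was at 427 to 616 CPM (median 509.9) in Ctrlm and 544 to 658 (median 607) in cKOm (0.24 ± 0.09, edgeR adjusted p = 0.153). For Cpt2 the log2 fold change was 0.17 ± 0.09 in males and 0.20 ± 0.09 in females, and for Mlycd -0.10 ± 0.11 and 0.22 ± 0.11.

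**Figure D2:**
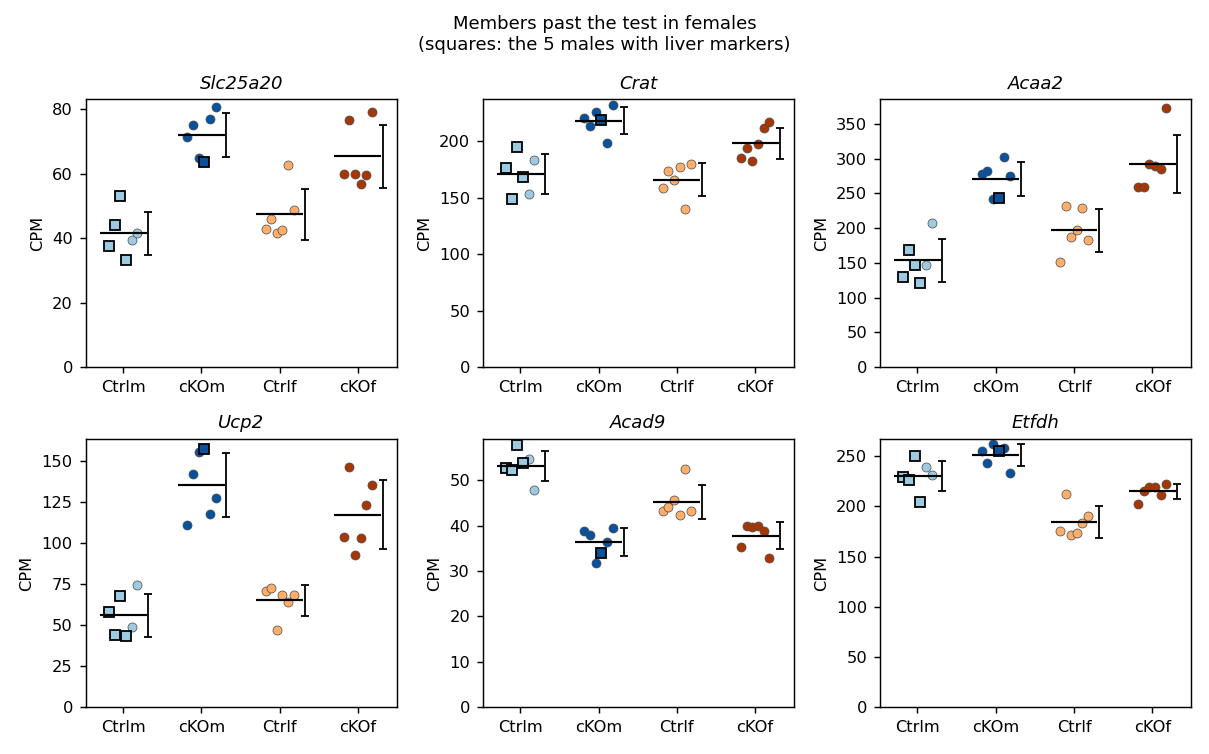
CPM of each mouse for the 6 members called in females, with a line at the mean of 6 mice, a bar for its SD and squares for the 5 males with liver markers. Slc25a20, Crat, Acaa2, Ucp2 and Etfdh sit higher in cKOf than in Ctrlf, and Acad9 sits lower in both deleted groups than in their controls.

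The straight-chain acyl-CoA dehydrogenases divided by direction in males. Of 8, Acadvl rose and Acadm, Acads, Acad9 and Acad10 fell, while Acadl, Acad11 and Acad12 were not called. The shares over all genes were 4.14% called higher and 4.9% called lower. Acadvl, the very-long-chain enzyme of the inner membrane, was at 253 to 338 CPM (median 306) in Ctrlm and 356 to 399 (median 379) in cKOm. It rose by 0.33 ± 0.09 (edgeR adjusted p = 0.0236), with no overlap between the groups. Without the 5 males the value was 0.14 ± 0.12 (edgeR adjusted p = 0.697). The call was also lost with the hepatocyte markers as a covariate (edgeR adjusted p = 0.186 for Acadvl), with every gene with a count (0.0835) and without Ctrlm 1, Ctrlm 2, Ctrlm 4, cKOm 1 or cKOm 5 alone (0.29 to 0.32). The female value was 0.19 ± 0.09 (edgeR adjusted p = 0.276).

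Acadm, the medium-chain enzyme, fell by 0.52 ± 0.13 in males (edgeR adjusted p = 0.0153). Its control males were spread widely, at 934 to 1890.0 CPM (median 1540.1), and its cKOm mice narrowly, at 967 to 1031 (median 984). Ctrlm 2 lay below every cKOm mouse, Ctrlm 4 just above them, and the other 4 control males far above. Both of these are among the 5 males with liver markers, and without the 5 the value was -0.84 ± 0.14 (edgeR adjusted p = 0.00148). Without Ctrlm 5 alone the value was -0.43 and not called (edgeR adjusted p = 0.0565). Females were at 1466 to 1986 (median 1791) in Ctrlf and 1307 to 2106 (median 1613) in cKOf (-0.09 ± 0.13).

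Acads, the short-chain enzyme, was at 106 to 152 CPM (median 138) in Ctrlm and 91.2 to 106 (median 93.2) in cKOm, and 5 of 6 cKOm mice lay below all control males. It fell by 0.47 ± 0.10 (edgeR adjusted p = 0.00303), and the value without the 5 males was -0.53 ± 0.14 (edgeR adjusted p = 0.0595). In females it was 0.03 ± 0.10.

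Acad9, which is needed to assemble respiratory complex I and also acts on long chains, was the only member called lower in both sexes. It was at 47.8 to 57.8 CPM (median 53.4) in Ctrlm and 31.8 to 39.6 (median 37.2) in cKOm, and at 42.4 to 52.5 (median 43.7) in Ctrlf and 32.8 to 40 (median 39.3) in cKOf. Neither pair of groups overlapped. The change was -0.55 ± 0.07 in males (edgeR adjusted p = 1.45e-05) and -0.26 ± 0.07 in females (edgeR adjusted p = 0.0381). When the 5 males were left out, it was -0.51 ± 0.12 (edgeR adjusted p = 0.0173). The female call for Acad9 was lost without Ctrlf 2, Ctrlf 3, Ctrlf 5, cKOf 1, cKOf 5 or cKOf 6 alone (-0.27 to -0.21), and with the replicate number as a block (edgeR adjusted p = 0.0686). It was also lost without Ctrlm 1, cKOm 2 or cKOm 5, without the 5 males, with every gene with a count, each sex alone, adjustment within each sex and either marker covariate (edgeR adjusted p = 0.0558 to 0.238 for Acad9 in the last 5).

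Acad10 fell by 0.61 ± 0.10 in males, where Ctrlm mice were at 48.5 to 68.8 CPM (median 55.1) and cKOm mice at 33.1 to 41.4 (median 37.8) with no overlap (edgeR adjusted p = 1.37e-04). With the 5 males left out, it was -0.42 ± 0.13 (edgeR adjusted p = 0.116). Acad12, its neighbour in the genome, shares 1614 bases of transcript at 95.3% identity with it, so that reads can be assigned to the wrong one of the pair. Acad12 was at 22.2 to 35.1 CPM in Ctrlm and 19.6 to 25.1 in cKOm (-0.26 ± 0.14, not called). Acadl, the long-chain enzyme, was 0.12 ± 0.11 in males and 0.33 ± 0.11 in females, and the male value turned to -0.11 ± 0.13 without the 5 males. Acad11 was 0.04 ± 0.08 and -0.06 ± 0.08.

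Of the dehydrogenases of branched-chain amino acid breakdown, Ivd, the isovaleryl-CoA dehydrogenase of leucine breakdown, fell in males. It was at 258 to 447 CPM (median 338) in Ctrlm and 219 to 243 (median 234) in cKOm, a change of -0.57 ± 0.10 (edgeR adjusted p = 5.64e-04) with no overlap. In the other 7 males, it was -0.47 ± 0.15 (edgeR adjusted p = 0.115). Its female value was -0.14 ± 0.10. Acadsb and Acad8, which act on isoleucine and valine intermediates, were called in neither sex, at 0.10 ± 0.08 and -0.19 ± 0.09 in males.

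Among the hydratase, dehydrogenase and thiolase steps, 3 of 5 members were called in males, all higher, against 4.14% of all genes called higher. Hadha and Hadhb, the subunits of the trifunctional protein of long-chain oxidation, rose by 0.35 ± 0.07 (edgeR adjusted p = 0.00105) and 0.31 ± 0.08 (edgeR adjusted p = 0.0143). Hadha was at 159 to 203 CPM (median 180.5) in Ctrlm and 215 to 240.3 (median 235) in cKOm. Hadhb was at 70.8 to 91.4 CPM (median 79.9) in Ctrlm and 96.4 to 112 (median 98.2) in cKOm. Neither overlapped between the groups. In Ctrlm, the 4 males with liver markers were lower than the other 2 for both genes, and for Acadvl and Decr1. With the hepatocyte markers as a covariate Hadhb was not called (0.25, edgeR adjusted p = 0.174), nor with every gene with a count (0.0686) or without Ctrlm 2 and Ctrlm 4 (0.0759). Without the 5 males with liver markers both were smaller and not called, at 0.20 ± 0.10 (edgeR adjusted p = 0.406) and 0.13 ± 0.11 (edgeR adjusted p = 0.692). In females both were 0.07, and neither was called.

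Acaa2, the mitochondrial thiolase that ends each round on medium chains, was at 121 to 207 CPM (median 147) in Ctrlm and 242 to 303 (median 277) in cKOm. It was at 151 to 232 (median 192) in Ctrlf and 259 to 373 (median 287) in cKOf. Every deleted mouse lay above every control of its sex. The rise was 0.82 ± 0.12 in males, 1.76-fold (edgeR adjusted p = 3.54e-05), and 0.57 ± 0.12 in females, 1.49-fold (edgeR adjusted p = 0.00244). When the 5 males were left out, the male value was 0.61 ± 0.17 (edgeR adjusted p = 0.0605). Hadh and Echs1, the short-chain hydroxyacyl-CoA dehydrogenase and enoyl-CoA hydratase, were called in neither sex, at -0.14 ± 0.08 and -0.23 ± 0.12 in males.

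The auxiliary enzymes for unsaturated chains also differed among themselves. Decr2, the peroxisomal dienoyl-CoA reductase, rose by 0.69 ± 0.10 in males (edgeR adjusted p = 4.28e-05). Ctrlm mice were at 43.8 to 61.7 CPM (median 51.2) and cKOm mice at 71.6 to 93.6 (median 83.6), with no overlap. With the 5 males left out, the value was 0.74 ± 0.15 (edgeR adjusted p = 0.00653). The female value was 0.22 ± 0.10 (edgeR adjusted p = 0.266). Decr1, the mitochondrial reductase, was called in males at 0.29 ± 0.08 (edgeR adjusted p = 0.0416), with control and cKOm mice overlapping at 239 to 346 and 320.3 to 398 CPM. Its value was 0.07 ± 0.10 without the 5 males (edgeR adjusted p = 0.854). It was also lost with the hepatocyte markers as a covariate (0.20, edgeR adjusted p = 0.404 for Decr1) and without any one of Ctrlm 1, 2, 4 or 6 and cKOm 1, 2, 3, 5 or 6 (0.25 to 0.30). Leaving out Ctrlf 4, Ctrlf 5, cKOf 2 or cKOf 4 lost it as well. So did RLE scaling (edgeR adjusted p = 0.0755 for Decr1), a fit of males alone (0.13), the filter at 1 CPM in 6 kidneys (0.0676) and the inclusion of every gene with a count (0.151). In females it was 0.27 ± 0.08 (edgeR adjusted p = 0.0601).

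Eci3 (ENSMUSG00000021416, chromosome 13, 34946614 to 34963810, minus strand in GRCm38), a peroxisomal enoyl-CoA isomerase, fell by 0.81 ± 0.12 in males (edgeR adjusted p = 2.92e-05). It was at 198 to 347 CPM (median 274) in Ctrlm and 126 to 170.3 (median 153) in cKOm, with no overlap, and at 153 to 229.7 (median 199) in Ctrlf and 161 to 220.1 (median 194) in cKOf. In the other 7 males, its value was -0.98 ± 0.14 (edgeR adjusted p = 1.86e-04). Its neighbour Eci2 shares 891 bases at 91.8% identity with it and was not called (0.24 ± 0.09 in males and 0.25 ± 0.09 in females). Eci1 and Ech1 were also not called, at 0.41 ± 0.16 and 0.18 ± 0.11 in males.

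**Figure D3:**
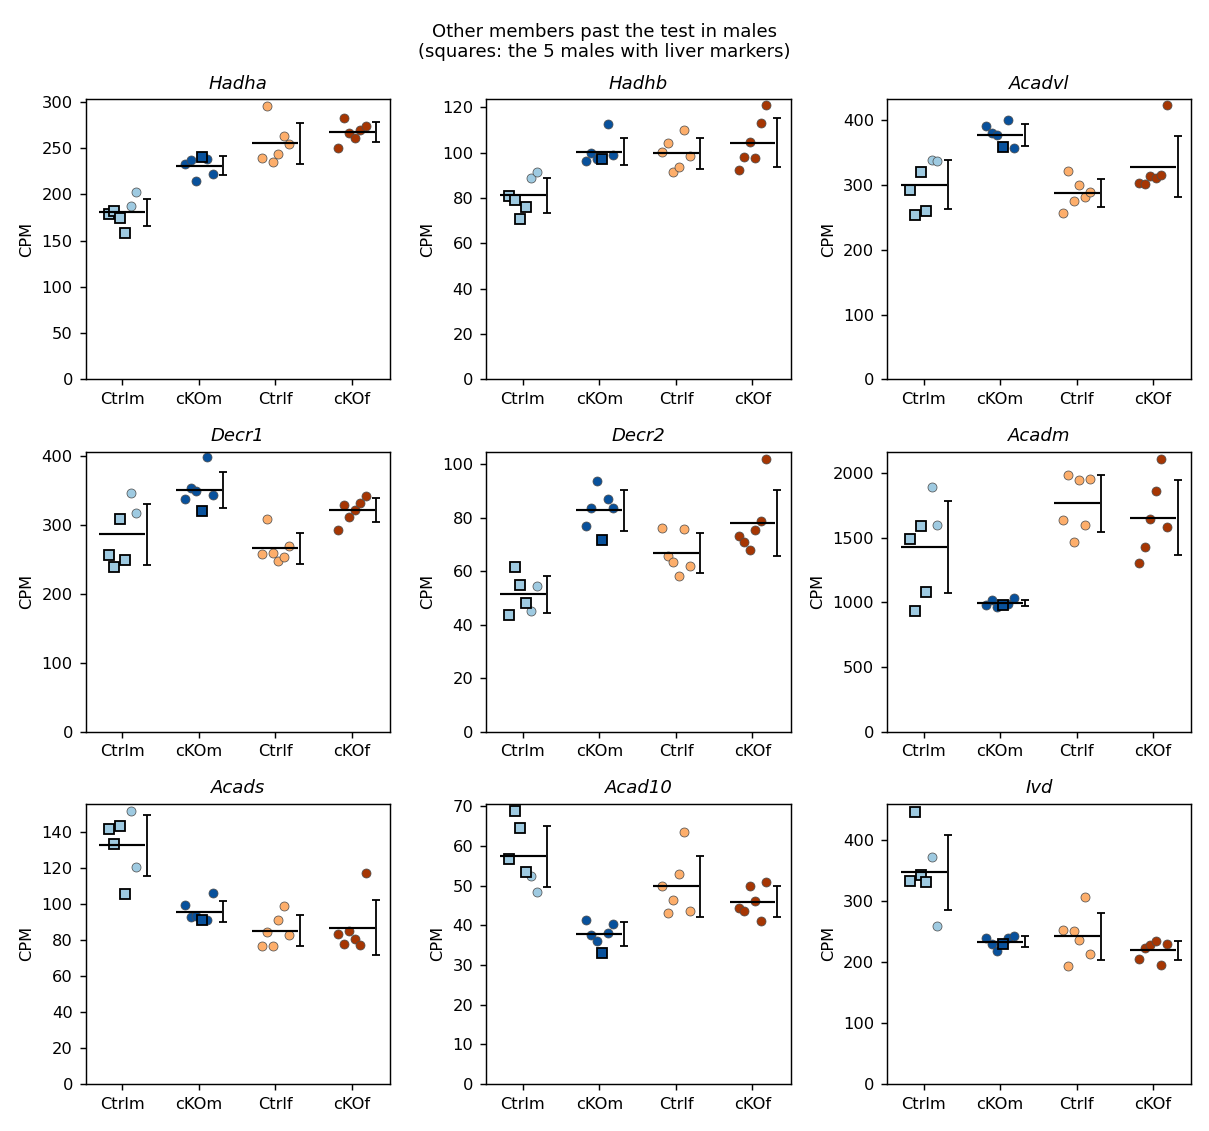
CPM of each mouse for 9 members called in males and not in females, with a line at the mean of 6 mice, a bar for its SD and squares for the 5 males with liver markers. Among control males, squares sit below both circles for Hadha, Hadhb, Acadvl and Decr1, and squares sit above both circles for Acad10.

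Of electron transfer flavoprotein and its oxidoreductase, Etfdh was called in females alone, at 171 to 212 CPM (median 179.6) in Ctrlf and 202 to 223 (median 217) in cKOf. The change was 0.22 ± 0.06 (edgeR adjusted p = 0.0384), and in males it was 0.13 ± 0.06 (edgeR adjusted p = 0.34). Ctrlf 2, the highest control female, lay within the cKOf range. The call for Etfdh was lost without any one of Ctrlf 1, 3, 4 or 5 and cKOf 2, 3, 4, 5 or 6 (0.20 to 0.23), and with the replicate number as a block (edgeR adjusted p = 0.072). It was also lost without Ctrlm 1, Ctrlm 6, cKOm 1, 2, 3 or 5, without the 5 males, and with RLE scaling, every gene with a count, each sex alone, adjustment within each sex and either marker covariate (edgeR adjusted p = 0.0509 to 0.238 for Etfdh in the last 6). The difference between the sexes was -0.10 ± 0.09 (edgeR adjusted p = 0.697). Etfa and Etfb, the subunits, were called in neither sex, at -0.24 ± 0.10 and -0.16 ± 0.18 in males. Etfb was counted at only 5.63 to 9.39 CPM in Ctrlm, and 58.3% of its exon bases are also exons of Gm45233 on the same strand.

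In ketone body metabolism, Bdh1 and Acat1 fell in males. Bdh1 (ENSMUSG00000046598, chromosome 16, 31422280 to 31458901, plus strand in GRCm38), which interconverts beta-hydroxybutyrate and acetoacetate, was at 110.2 to 159.8 CPM (median 129) in Ctrlm and 51.5 to 77.9 (median 60.2) in cKOm, with no overlap. It fell by 1.09 ± 0.10, to 0.471 of the control level (edgeR adjusted p = 4.20e-08). Females were at 135 to 164 (median 146) in Ctrlf and 119.8 to 159 (median 132) in cKOf (-0.12 ± 0.10, edgeR adjusted p = 0.638). Without the 5 males the male value was -1.14 ± 0.14 (edgeR adjusted p = 4.17e-05).

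Acat1 (ENSMUSG00000032047, chromosome 9, 53580522 to 53610382, minus strand in GRCm38), the mitochondrial acetoacetyl-CoA thiolase used in ketone body and isoleucine breakdown, was at 941 to 1277 CPM (median 1071) in Ctrlm and 481 to 638 (median 602) in cKOm. It fell by 0.89 ± 0.09 (edgeR adjusted p = 2.11e-07), and the value without the 5 males was -0.97 ± 0.12 (edgeR adjusted p = 3.37e-05). Females were at 452 to 555 (median 492) in Ctrlf and 443 to 591 (median 505) in cKOf (0.01 ± 0.09). Oxct1, the transferase with which extrahepatic tissue starts to use acetoacetate, was at 1684 to 2352 CPM (median 2013) in Ctrlm and 1575 to 1793 (median 1721) in cKOm (-0.23 ± 0.09, edgeR adjusted p = 0.149). When the 5 males were left out, it was -0.46 ± 0.11 and passed the threshold (edgeR adjusted p = 0.0281).

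Ucp2 (ENSMUSG00000033685, chromosome 7, 100493337 to 100502020, plus strand in GRCm38), an inner membrane carrier of the uncoupling protein family, had the largest rise among the members in both sexes. It was at 43 to 74.4 CPM (median 53.1) in Ctrlm and 111 to 157 (median 135) in cKOm, and at 46.8 to 72.6 (median 68.2) in Ctrlf and 92.8 to 146 (median 113) in cKOf, with no overlap in either sex. The rise was 1.27 ± 0.14 in males, 2.42-fold (edgeR adjusted p = 5.93e-07), and 0.85 ± 0.14 in females, 1.8-fold (edgeR adjusted p = 1.77e-04). With the 5 males left out, it was 1.06 ± 0.20 (edgeR adjusted p = 0.00436). In a two-sided exact permutation test of its CPM, p was 0.00216 in each sex, the smallest value that 6 mice against 6 allow. Every member without overlap has this p, so it adds nothing to the ranges. Ucp3, the muscle form, was at most at 3.55 CPM in any kidney and was called in neither sex.

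Whether the sexes differed was tested with the interaction of genotype and sex, adjusted over all genes. The study found some full-length Pex5 mRNA and PEX5 protein left in cKOf, and proposed incomplete excision there. PEX5 protein was nearly absent in cKOm. Sex and the extent of deletion therefore cannot be told apart in this test. Crot, Eci3, Bdh1 and Acat1 were called, 4 of 36, against 2.31% of all genes. Their male effect was lower than the female one by 0.98, 0.77, 0.97 and 0.90 on the log2 scale (edgeR adjusted p = 5.80e-05, 0.00728, 1.54e-04 and 1.13e-04, in that order). All 4 stayed called without the 5 males with liver markers, where Acadm joined them. Acads (-0.50 ± 0.14, edgeR adjusted p = 0.0555), Acad10 (-0.49 ± 0.14, edgeR adjusted p = 0.0573) and Decr2 (0.47 ± 0.14, edgeR adjusted p = 0.0858) came nearest without being called. Without Ctrlf 5, or without Ctrlm 6, 7 members were called, the 4 with Acads, Acad10 and Ivd. For Slc25a20, Crat, Acaa2 and Ucp2, which rose in both sexes, the difference between the sexes was not called.

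**Figure D4:**
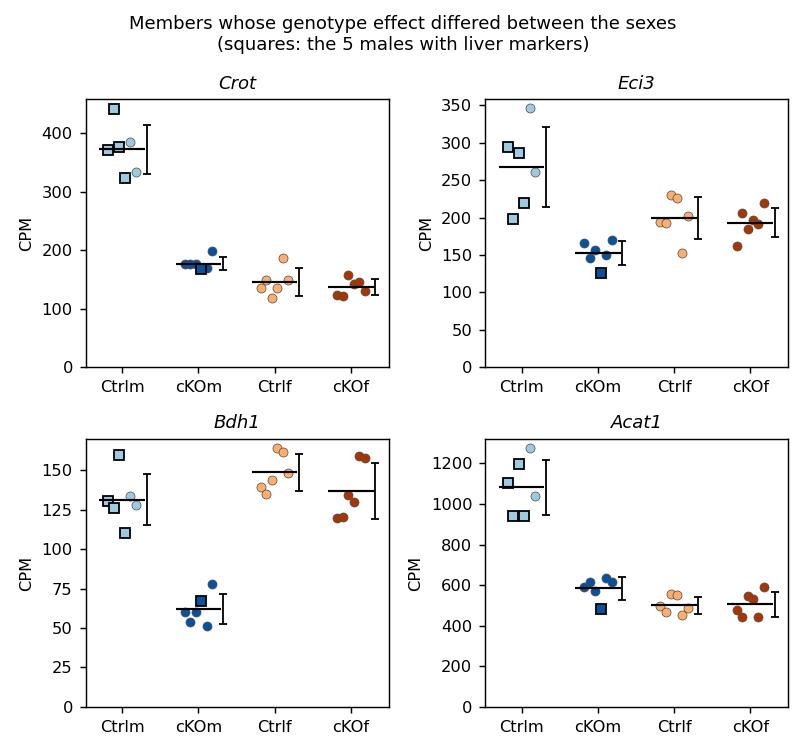
CPM of each mouse for Crot, Eci3, Bdh1 and Acat1, with a line at the mean of 6 mice, a bar for its SD and squares for the 5 males with liver markers. For Crot and Acat1, all control males sit far above the other 3 groups. For Bdh1, cKOm mice sit below all other groups.

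Control males and control females also differed, and these values share the controls of the comparisons above. In that comparison 16 of 36 members were called, against 16.8% of all genes. Males were higher for 12 (8.71% of all genes), namely Crot, Mlycd, Acadl, Acads, Acad9, Ivd, Hadh, Eci2, Eci3, Etfa, Etfdh and Acat1. Males were lower for Hadha, Hadhb, Acaa2 and Decr2 (8.11%). The largest were Crot, 1.36 ± 0.10 (edgeR adjusted p = 1.91e-11), and Acat1, 1.11 ± 0.09 (edgeR adjusted p = 4.78e-10). Next came Acads at 0.64, Ivd at 0.52 and Hadha at -0.50. Bdh1 was at -0.18 and was not called. Without the 5 males with liver markers, 11 members were called against 9.66% of all genes, and 9 of the 16 remained. With the hepatocyte marker level as a covariate 8 were called. The summed level of these markers was 1504 to 3825 CPM in Ctrlm and 221 to 330 in Ctrlf, so the covariate partly stands for sex.

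Levels across members were compared per kilobase of exon, in CPM per kb over control males. Oxct1 was the most abundant at 539, followed by Acadm at 365, Acadl at 322, Acat1 at 288 and Eci3 at 189. Crot was at 68.3, Cpt1a at 67.3, Bdh1 at 33.8, Slc25a20 at 8.56 and Ucp2 at 7.99. The lowest were Etfb at 5.71, Acad12 at 4.24 and Ucp3 at 0.178. These lengths join every annotated exon, so genes with long or rarely used exons come out low.

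Some member counts can include or lose reads of other genes. Hadhb shares 69.7% of its transcript at 97% identity or more with other genes, with a longest match of 1428 bases in Gm13910. Acad9 shares 20.5%, Acad10 29.7% and Eci3 24% of the transcript at that identity with other genes. Cpt1b shares 81.4% of its exon bases with Gm44502 on the same strand, and Acad9 6.8% with Gm43079. On the opposite strand, 42.9% of Acadvl exon bases overlap Dvl2, 13.7% of Bdh1 overlap Gm15743 and 12.6% of Oxct1 overlap BC037032. The kit marks strand, but the setting used in counting was not given in the sources used here. Acadm shares 681 bases at 93.5% identity with Gm5131.

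Of 77 other pathway genes listed by function, 75 were tested. In males 13 rose and 13 fell, where 4.14% and 4.9% of all genes did, and in females Acot2, Acsl3, Angptl4 and Dbi, the 4 called, rose, against 0.391% of all genes. Without the 5 males with liver markers 8 rose and 8 fell in males, against 3.69% of all genes called in either direction. All 6 called genes of the 14 in steps next to beta-oxidation, mainly propionate and branched-chain breakdown, fell in males, against 4.9% of all genes. The list also holds Gcdh, the glutaryl-CoA dehydrogenase, which is among the 6 and fell by 0.61 ± 0.08 (edgeR adjusted p = 8.05e-06). It was at 352 to 469 (median 410.0) CPM in Ctrlm and 238 to 304 (median 261) in cKOm. In fatty acid uptake and activation, Acsl1, an acyl-CoA synthetase of the mitochondrial outer membrane and endoplasmic reticulum, rose by 1.27 ± 0.13 in males (edgeR adjusted p = 2.15e-07). Acsl3 rose by 1.00 ± 0.13 in cKOm (edgeR adjusted p = 8.06e-06) and by 0.71 ± 0.13 in cKOf (edgeR adjusted p = 6.89e-04). Slc27a2, a peroxisomal and membrane acyl-CoA synthetase, fell by 0.50 ± 0.08 in males (edgeR adjusted p = 1.44e-04).

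Acot2, a mitochondrial acyl-CoA thioesterase, rose in both sexes. It was at 6.67 to 11.3 CPM (median 7.5) in Ctrlm and 21.5 to 25.4 (median 23.7) in cKOm (1.48 ± 0.14, edgeR adjusted p = 7.56e-08). In females it changed by 0.61 ± 0.14 (edgeR adjusted p = 0.00745), and was not called with adjustment within each sex (edgeR adjusted p = 0.0652 for Acot2). Among the medium-chain synthetases, Acsm3 fell by 4.01 ± 0.33 and Acsm2 by 0.90 ± 0.11 in males (edgeR adjusted p = 6.23e-09 and 3.48e-06). Acsm1 rose by 0.89 ± 0.14 and Acsf2 by 0.97 ± 0.15 (edgeR adjusted p = 1.20e-04 and 6.87e-05). Acsm3 was at 488 to 1153 (median 874) CPM in Ctrlm, 29.2 to 81.4 (median 49.1) in cKOm and at most 6.87 in any female.

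Among 21 tested regulators of fatty acid oxidation, Pdk4, Angptl4 and Plin2 were called in males, all higher in cKOm, against 4.14% of all genes. These and Dbi were named after their values were seen.

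**Figure D5:**
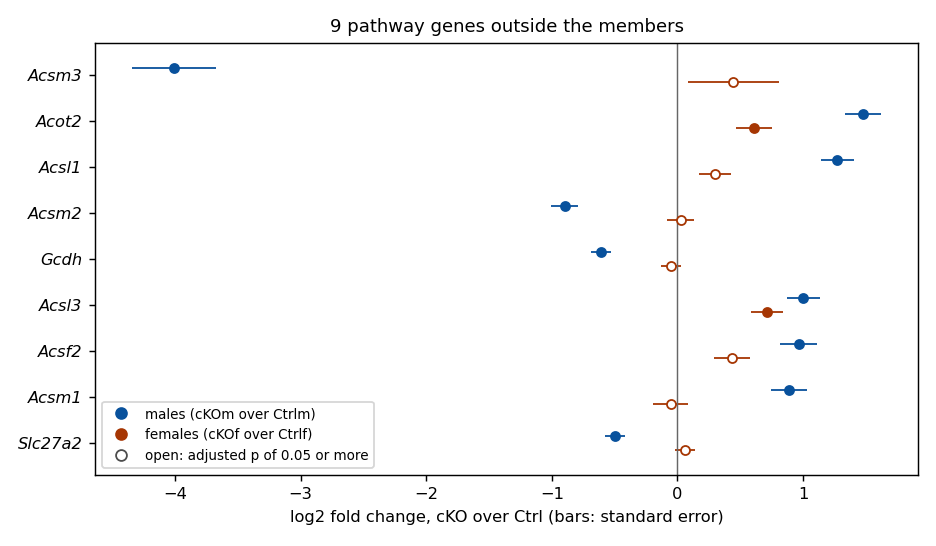
Log2 fold change (cKO over Ctrl) of the 9 other pathway genes given with values, in males (blue) and females (brown), with bars for the standard error and filled points for an adjusted p under 0.05. Acsm3 lies lowest in males at -4.01 and Acot2 highest at 1.48, and Acot2 and Acsl3 are filled in both sexes.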

How the data were processed

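RNA-seq of 24 whole mouse kidneys was used. Per the labels and the methods of the study, the authors made TruSeq Stranded mRNA libraries, trimmed reads with cutadapt 1.8, aligned them to GRCm38 with STAR 2.5.3a and counted reads per gene with HTSeq 0.9.1. The deposited values are raw counts per gene and kidney, whole numbers with no normalization. The closing lines of each table that name no gene were left out; reads with more than 1 alignment, 26.9% to 34.8% of reads, are among them and lower the counts of genes with close copies. The sources used here differ on the time of day of collection and the amount of RNA.

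The 37 members and all lists were chosen with earlier results of these data known. Counts were tested with the quasi-likelihood test of edgeR 4.0.16 (R 4.3.3, TMM, 1 model of 4 groups) for genes that reached 1 CPM in 1 kidney or more. The study used limma-voom, here an alternative (limma 3.58.1), as was DESeq2 1.42.0. The SE is the log2 fold change divided by the square root of F. Male and female p-values were adjusted together by Benjamini-Hochberg, and the interaction and Ctrlm against Ctrlf each over all genes. Exact permutation tests of CPM used all 924 arrangements. Other alternatives were RLE scaling, other filters, each sex alone, adjustment within sex, a replicate block, marker covariates and leaving out each mouse. Leaving out sets of mice was chosen after seeing the data. All members were named, with at most 10 other pathway genes, those of the smallest p among the called, of which 1 is not reported here. Replicates are separate mice. Scripts were tested on simulated data. Transcripts were compared by BLAST 2.17.0 with GENCODE vM21, and tables used Python 3.11.15 with pandas 2.3.3. A planned comparison of protein ends was not run, as protein sequence was not used here.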

Additional observations from a re-analysis of the deposited data

Results flagged for a closer look

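A mouse far from the other 5 of its group, by Dixon's test at the 95% level, was found in 28 of 144 groups of a member. Many of the 28 were in cKOf 6 and Ctrlf 5, the females farthest from their groups over the members. Chance gives about 1 in 20 for a single test. The 144 tests share the same mice and are not independent, so the 28 cannot be read as an excess over chance. In cKOf 6, 10 members passed Dixon's test as the highest of the group, in CPM: Cpt2 144.6, Acadvl 423, Acads 117, Hadh 407, Echs1 133, Acaa2 373, Ech1 285, Eci2 128, Decr2 102 and Etfa 234. Other members, such as Slc25a20 and Crat, were also highest in cKOf 6 without passing it. In Ctrlf 5, Slc25a20 (62.8), Acad9 (52.5), Acad12 (41.4), Echs1 (177), Eci1 (54.2) and Etfa (269) were highest and Acadl (369) was lowest. The others were high for Crot in cKOm 6 (198), Acadl (776) and Hadhb (112) in cKOm 5, Acad11 (244) and Echs1 (161) in Ctrlm 2, Decr1 in Ctrlf 2 (309) and Ucp3 in Ctrlf 6 (3.55). They were low for Acad11 in cKOm 6 (191), Acadsb in Ctrlf 4 (133), Ucp2 in Ctrlf 3 (46.8) and Ucp3 in cKOf 3 (0.090).

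The genotype effect differed between the sexes in the edgeR interaction test for Crot (male minus female log2 fold change -0.98), Eci3 (-0.77), Bdh1 (-0.97) and Acat1 (-0.90). Sex and the extent of deletion cannot be told apart here.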

How the results depend on the processing

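Of 24 member values called in males or females, 10 were called under every alternative run for them (8 male, 2 female) and 0 changed sign. Without the 5 males with liver markers, 10 members were called in males in place of 18. The female count of 6 was 3 with every gene with a count, each sex fitted alone, the hepatocyte or the adipocyte marker covariate, or without Ctrlf 5 and cKOf 6, 2 with adjustment within each sex, and 3 to 8 with 1 mouse left out. The interaction count of 4 was 9 without Ctrlm 2, Ctrlm 4, Ctrlf 5 and cKOf 6, and 4 to 7 with 1 mouse left out. The count of 16 between control groups was 8 with the hepatocyte covariate, whose markers also differ in level between the sexes. The cause of these changes was not tested.

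Same-numbered mice belong to different groups and so are different animals. Over 36 pairs the correlation of their deviations was -0.199 to 0.12, and 0 of 24 mice correlated best with their own number. With the replicate number as a block, 18 members were called in males, 4 in females, 4 in the interaction and 15 between control groups.

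Values that changed sign were not called in the main test. Acadl in males was -0.035 without Ctrlm 2 and Ctrlm 4 and -0.11 without the 5 males. Without Ctrlf 5 and cKOf 6, female values were 0.011 for Crot, -0.030 for Acads, 0.0099 for Acad11 and -0.064 for Acat1. Etfa in females was -0.0062 with every gene with a count and -0.0023 with each sex alone. Ucp3 in females was 0.49 in limma-voom, 0.18 with the replicate block and 0.0045 with the adipocyte covariate. With 1 mouse left out, female values spanned -0.077 to 0.074 for Acads, -0.11 to 0.0040 for Acad11, -0.11 to 0.0012 for Eci3, -0.048 to 0.11 for Etfa, -0.14 to 0.061 for Etfb, -0.027 to 0.065 for Oxct1, -0.036 to 0.049 for Acat1, -0.63 to 1.11 for Ucp3 and -0.041 to 0.092 for Acsm2.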
